A study of Mus musculus with 10 samples.

Results

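The genes of the cytosolic ribosomal proteins were followed in 10 cultures of mouse embryonic fibroblasts, connective tissue cells taken from embryos and here immortalized. Their 85 members were chosen by name: protein-coding genes whose symbol starts with Rpl or Rps and a digit, with Rplp0, Rplp1, Rplp2 and Rpsa. Kinases with such a symbol, Rps19bp1 and copies named -ps were left out. The members made up 85 of the 26401 genes in the count table, 52 of the large subunit and 33 of the small subunit. The rule takes in close copies of canonical members, such as Rpl3l and Rpl22l1. It does not take in Rack1, whose product also sits on the ribosome.

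The study compared 5 populations in which a mutant mitochondrial genome made up a high share (high 1 to high 5) with 5 in which its share was low (low 1 to low 5). Both groups carried the same C-to-T change at position 5024 of mitochondrial DNA, in mt-Ta, the gene of the mitochondrial alanine tRNA, and neither group was treated. The submitters give C57Bl/6N for all populations, culture with 10% serum and 50 µg/ml uridine, and 1 clone number per population. The sources used here do not give how the clones were derived and immortalized, or the mutant share of each. Each population gave 1 poly(A)-selected library, so the p-values below measure the spread between these populations. In such bulk RNA, fewer cells of a type and less RNA per cell cannot be told apart.

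Total gene counts ran from 17318372 to 28208576 per library. Of 11 fibroblast markers, 10 reached a mean of 1 CPM (count per library scaled to the same total), with Col1a1 and Vim high throughout. Their summed level ran from 9420 to 19600 CPM in the high libraries and from 11600 to 13400 CPM in the low libraries. Lum was at or near 0 in all, and Dcn measured at most 3.53 CPM. Others differed widely between clones. Col1a2 measured 1.98 CPM in high 2 and 2.15 CPM in high 4. It ran from 119 to 614 CPM in the other high libraries and from 72.9 to 886 CPM in the low libraries. Thy1 measured 56.8, 11.3, 3.25, 0 and 0.399 CPM in high 1 to high 5, and at most 0.326 CPM in the low libraries. Pdgfra ran from 0.266 to 50.9 CPM in the high libraries and from 2.12 to 9.29 CPM in the low libraries. Of 5 adipocyte markers, Fabp4 and Pparg were called higher in high heteroplasmy, with list sums of 40 to 148 CPM there against 11.9 to 24.7 CPM in low heteroplasmy, and Adipoq was near 0 in both. The epithelial list summed to 113 to 510 CPM in the high libraries and 454 to 672 CPM in the low libraries, with Krt18 called higher in high heteroplasmy, while Krt19 measured at most 384 CPM in the high libraries and at least 442 CPM in the low libraries. The neural list summed to 39.2 to 182 CPM in the high libraries and 35 to 93.6 CPM in the low libraries, with Tubb3 called lower in high heteroplasmy and Map2 at 28.8 to 177 CPM in high heteroplasmy and 16.2 to 76.8 CPM in low heteroplasmy. Muscle markers summed to 4.16 to 24.7 CPM in the high libraries and 2.39 to 5.24 CPM in the low libraries, most of it Des, and blood markers to 12.1 to 90.1 CPM and 12.5 to 26.4 CPM in the same order, nearly all of it Cd68. Endothelial markers summed to at most 1.42 CPM in the high libraries and 1.72 CPM in the low libraries. Of the listed markers in the count table, Ptprc, Cdh5, Myog and Sox10 had 0 counts in all libraries. Other genes of the same lists were detected at low levels. Pecam1 reached 0.711 CPM, Kdr 1.09 CPM, Spi1 0.437 CPM and Gfap 0.844 CPM in their highest library. The part of the marker shifts in the results below was not tested. The noncoding RNA Gm42418 reached 40941 CPM in low 2 and 8017 CPM in low 3, against 745 to 1154 CPM in the high libraries, so counts of calls are also given without low 2 and low 3.

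Ribosomal proteins are made in the cytosol, carried into the nucleolus and built onto ribosomal RNA, where they stabilise the RNA fold and line the sites that mRNA, tRNA and the new protein pass through. A cell uses them in near-equal numbers, and a protein made in excess is soon degraded. Their mRNAs are among the most abundant of a growing cell and start with a run of pyrimidines, the 5′ TOP motif, through which translation follows growth signals by way of mTORC1 and LARP1. Mitochondrial ribosomes use a separate set of proteins (Mrpl and Mrps), which is no member here.

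The start-site sequences show where pyrimidine runs lie in members that the results turn on. They are RefSeq windows on GRCm38.p6, from 20 bases before to 40 bases from the annotated start. The longest run of C or T is in capitals, the first of them where runs tied, and all annotated starts of each gene are shown.

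Rpl15 (chr14:18270947-18271006, minus strand): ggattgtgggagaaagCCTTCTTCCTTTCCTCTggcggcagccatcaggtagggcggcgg
Rps24, first start (chr14:24490658-24490717, plus strand): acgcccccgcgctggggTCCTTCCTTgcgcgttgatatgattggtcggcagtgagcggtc
Rps24, second start (chr14:24490733-24490792, plus strand): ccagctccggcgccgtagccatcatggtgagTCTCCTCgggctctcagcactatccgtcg
Rpl5 (chr5:107900508-107900567, plus strand): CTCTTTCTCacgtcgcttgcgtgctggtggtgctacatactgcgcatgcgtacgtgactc
Rpl10a, first start (chr17:28328451-28328510, plus strand): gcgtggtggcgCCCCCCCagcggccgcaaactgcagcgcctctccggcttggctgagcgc
Rpl10a, second start (chr17:28328545-28328604, plus strand): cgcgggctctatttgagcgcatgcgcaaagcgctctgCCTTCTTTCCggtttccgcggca
Rpl35 (chr2:39005092-39005151, minus strand): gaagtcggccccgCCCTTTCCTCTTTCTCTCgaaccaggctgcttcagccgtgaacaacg
Rps15 (chr10:80292411-80292470, plus strand): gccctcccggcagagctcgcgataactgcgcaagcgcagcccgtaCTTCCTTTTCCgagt
Rpl23 (chr11:97782400-97782459, minus strand): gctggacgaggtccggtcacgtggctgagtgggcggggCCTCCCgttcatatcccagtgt

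The run covered the annotated start in Rpl15 (17 bases), Rpl35 (18 bases) and the first start of Rps24 (9 bases). In Rpl5 the run ended before the start. So did the marked run of 7 bases at the first start of Rpl10a, but another run of the same length began after that start. In Rps15, Rpl23, the second start of Rps24 and the second start of Rpl10a the run began after the start. Entries matched 65 members, with 77 windows. A run of at least 8 pyrimidines lay anywhere in the window in 59.7% of member windows, against 21.7% of the 32774 windows of all other genes. Such a run covered the start itself in 22.1% of member windows, against 3.82% of the others. The motif CCGGAAG, searched on both strands over 300 bases, lay in 35.1% of member windows, against 8.8% of the other windows. The motif TATAAA, searched on the coding strand in the 50 bases before the start, lay in 1.3% of member windows and 2.63% of the others. These matches describe the letters of the windows and say nothing of binding.

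Ribosomal protein mRNAs made up 4.80, 4.12, 4.63, 4.97 and 3.98% of gene counts in high 1 to high 5. Their share was 5.46, 4.34, 5.92, 5.36 and 5.70% in low 1 to low 5. The low libraries other than low 2 all lay above every high library, and low 2 lay inside the high range, so the groups overlapped. The share averaged 4.50 ± 0.43% in high heteroplasmy and 5.36 ± 0.61% in low heteroplasmy (SD, n = 5 each), a difference of -0.86 percentage points, which is larger than either SD and was not tested because the members were chosen with earlier results known. Both subunits took part in it. The large subunit held 2.61 ± 0.25% in high heteroplasmy and 3.15 ± 0.35% in low heteroplasmy, and the small subunit 1.89 ± 0.19% and 2.21 ± 0.27% in the same order. The log2 ratio of large to small subunit counts was 0.468 ± 0.061 in high heteroplasmy and 0.512 ± 0.054 in low heteroplasmy, a difference smaller than either SD.

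**Figure D1:**
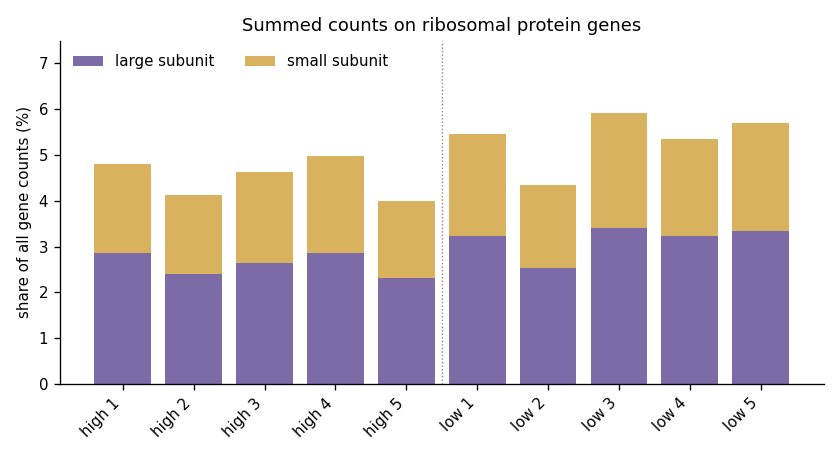
Share of all gene counts (%) on ribosomal protein genes in each library, large and small subunit stacked, high heteroplasmy left and low heteroplasmy right of the dotted line. The total ran from 3.98 to 4.97% in the high libraries and from 4.34 to 5.92% in the low libraries, with low 2 inside the high range.

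Of the 85 members, 82 passed the filter on low counts and were tested with all other genes (edgeR quasi-likelihood test, Benjamini-Hochberg adjustment over 12964 genes, threshold 0.05). Rpl10l, a testis copy of Rpl10, had 0 counts in all libraries, which allows up to 0.173 CPM in the shallowest library and 0.106 CPM in the deepest. Rpl39l, the testis copy of Rpl39, had 1 count, in high 1. Rpl3l, a copy of Rpl3 known from heart and skeletal muscle, had 6 counts over the high libraries and 3 over the low libraries.

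Most tested members were slightly lower in high heteroplasmy, and few passed the test. The log2 fold change (high over low) was below 0 for 78 of the 82, or 95.1%, against 47.7% of all genes tested. Its median was -0.31, against a median of 0.02 over all genes tested. The 49 tested large subunit genes had a median of -0.31 with 46 below 0, and the 33 small subunit genes one of -0.34 with 32 below 0. Among the 2482 other genes that averaged 100 CPM or more, as 79 members did, 52.7% were below 0 and the median was -0.02. Since member mRNAs vary together from library to library, these 82 values are not independent.

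In the same test 4 members fell and 0 rose, which is 4.88% of the members, against 4.86% of all genes tested (2.87% fell and 1.99% rose). The share called is at the background. An unadjusted p under 0.05 was reached by 18 members (22%, against 21.6% of all genes), all of them lower in high heteroplasmy, and by 0 members that were higher. DESeq2 called 7 of 84 members lower and 0 higher, with 1640 of 23275 genes (7.05%) called. Those 23275 include genes of few counts that it left without an adjusted p, so this share is a low background for the members. Limma-voom called the same 4 members as edgeR lower and 0 higher, with 5.1% of all genes called. In 6 members (7.32%) all high libraries lay below all low libraries, where 7.17% of all genes had groups that did not overlap in either direction and 4.17% had them in this direction. Without low 2 and low 3, edgeR called 0 members, 79 of 82 were below 0 and the median was -0.35. In that fit 0.414% of genes were called.

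**Figure D2:**
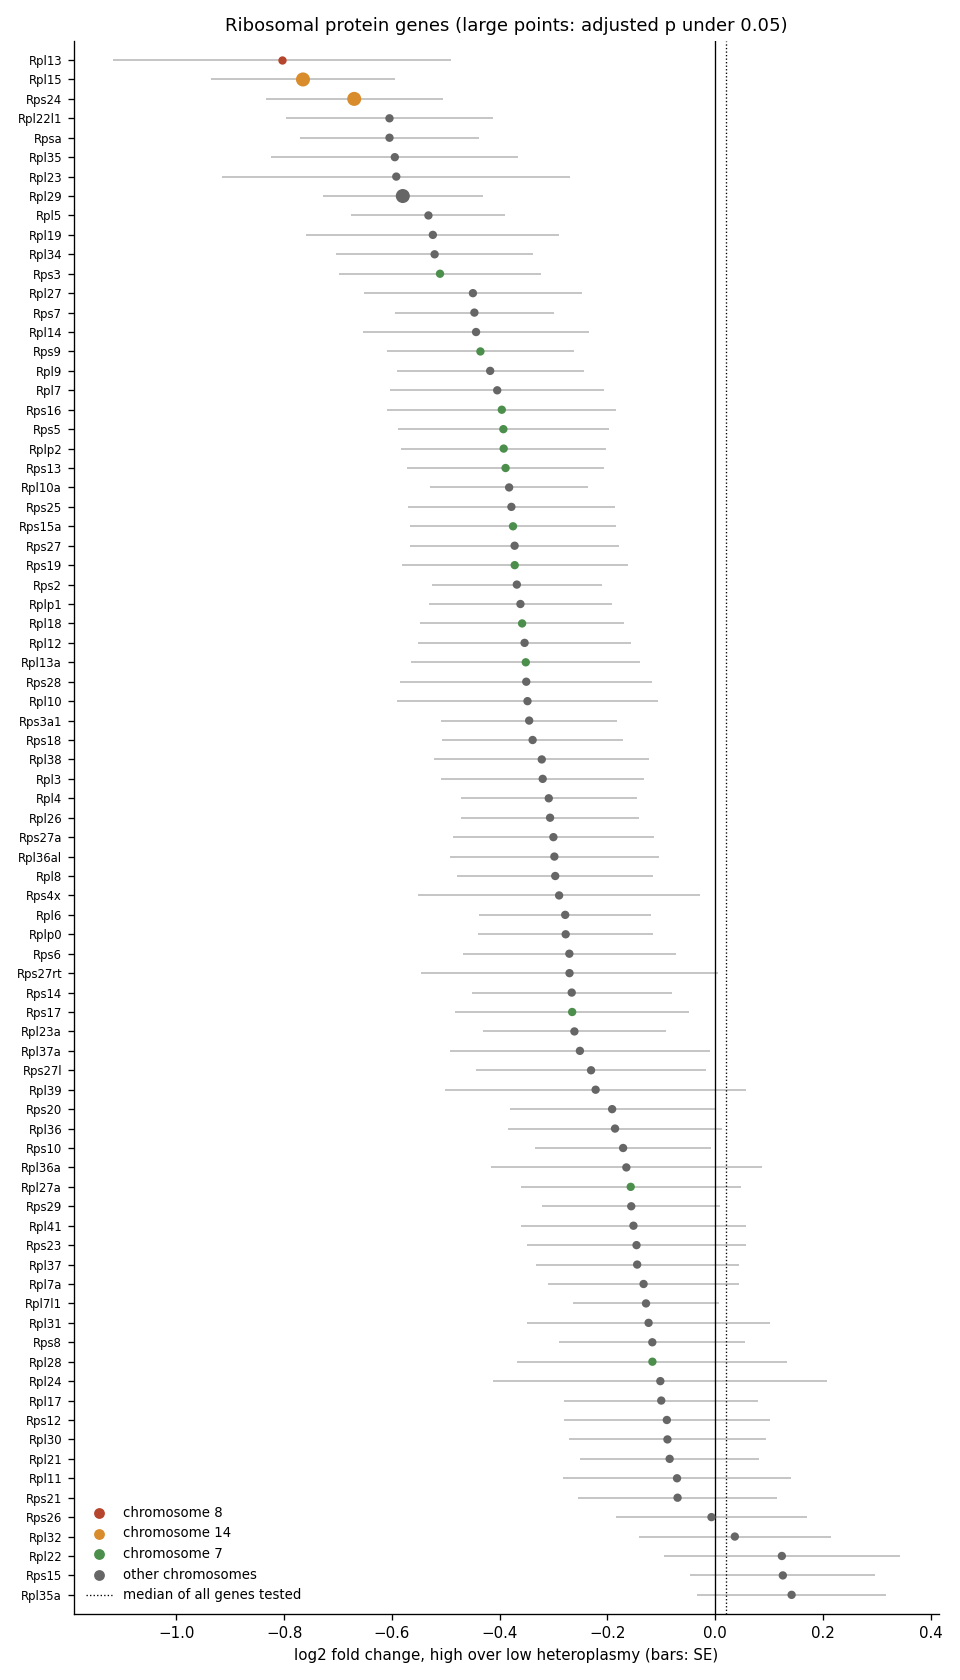
Log2 fold change of 80 of the 82 tested ribosomal protein genes, high over low heteroplasmy, with its SE, in order of size and coloured by chromosome. Large points are the 3 drawn genes with an adjusted p under 0.05, and 76 of the 80 points lie left of 0.

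Rpl15 (ENSMUSG00000012405, chr14:18267823-18271391, minus strand) encodes a core protein of the large subunit whose human counterpart is mutated in some patients with Diamond-Blackfan anaemia, a failure of red cell production. Rpl15 measured 262, 230, 310, 273 and 229 CPM in high 1 to high 5, against 415, 312, 447, 571 and 471 CPM in low 1 to low 5. The groups did not overlap, but high 3 and low 2 lay next to each other. The log2 fold change was -0.77 (SE 0.17, edgeR adjusted p = 0.0314), and the call held in 3 of 10 fits that left out 1 library. Rpl15 shares 105 exon bases with Nkiras1 on the opposite strand, whose mean was 11.9 CPM, or 3.39% of the level of Rpl15, and the sources used here do not give the strand setting of the counting.

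On the same chromosome, Rps24 (ENSMUSG00000025290, chr14:24487125-24496959, plus strand), another Diamond-Blackfan gene, encodes a small subunit protein needed to process the ribosomal RNA precursor. Rps24 measured 394, 359, 471, 450 and 324 CPM in high 1 to high 5, against 607, 479, 664, 781 and 648 CPM in low 1 to low 5. Here too high 3 and low 2 were neighbours at the edge of groups that did not overlap, and low 4 was the highest of all in both genes. The log2 fold change of Rps24 was -0.67 (SE 0.16, edgeR adjusted p = 0.0408), and 2 of 10 fits without 1 library kept the call.

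On another chromosome, Rpl29 (ENSMUSG00000048758, chr9:106429454-106431568, plus strand) encodes a large subunit protein without which mice are small. Rpl29 measured 302, 229, 324, 322 and 256 CPM in high 1 to high 5, against 407, 367, 471, 396 and 499 CPM in low 1 to low 5. High 2 was the lowest and low 5 the highest. The log2 fold change was -0.58 (SE 0.15, edgeR adjusted p = 0.0477), just inside the threshold, and only the fit without high 4 kept the call among the 10 that left out 1 library. Just outside the threshold stood Rpl5 (adjusted p = 0.0567) and Rpsa (adjusted p = 0.0607). Rpsa measured 792, 853, 1051, 780 and 742 CPM in high 1 to high 5, against 1188, 1154, 1609, 1013 and 1448 CPM in low 1 to low 5, and its groups overlapped only through high 3 and low 4.

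A pair of members had groups that did not overlap without a call. Rpl5, which with Rpl11 and 5S ribosomal RNA forms the particle that can bind Mdm2 when assembly fails, measured 225, 202, 179, 223 and 230 CPM in high 1 to high 5, against 346, 238, 340, 279 and 329 CPM in low 1 to low 5. Its log2 fold change was -0.53 (SE 0.14), and Rpl5 shares 953 of 3920 exon bases with Fam69a on the opposite strand, listed at 10.4 CPM. Its partner Rpl11 overlapped between the groups, at 203 to 417 CPM in high heteroplasmy and 216 to 338 CPM in low heteroplasmy, with a log2 fold change of -0.07 (SE 0.21). Rpl10a, a large subunit protein at the flexible L1 stalk, measured 234, 345, 288, 347 and 341 CPM in high 1 to high 5, against 361, 374, 453, 432 and 408 CPM in low 1 to low 5. Its log2 fold change was -0.38 (SE 0.15, edgeR adjusted p = 0.152), with high 4 and low 1 next to each other.

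**Figure D3:**
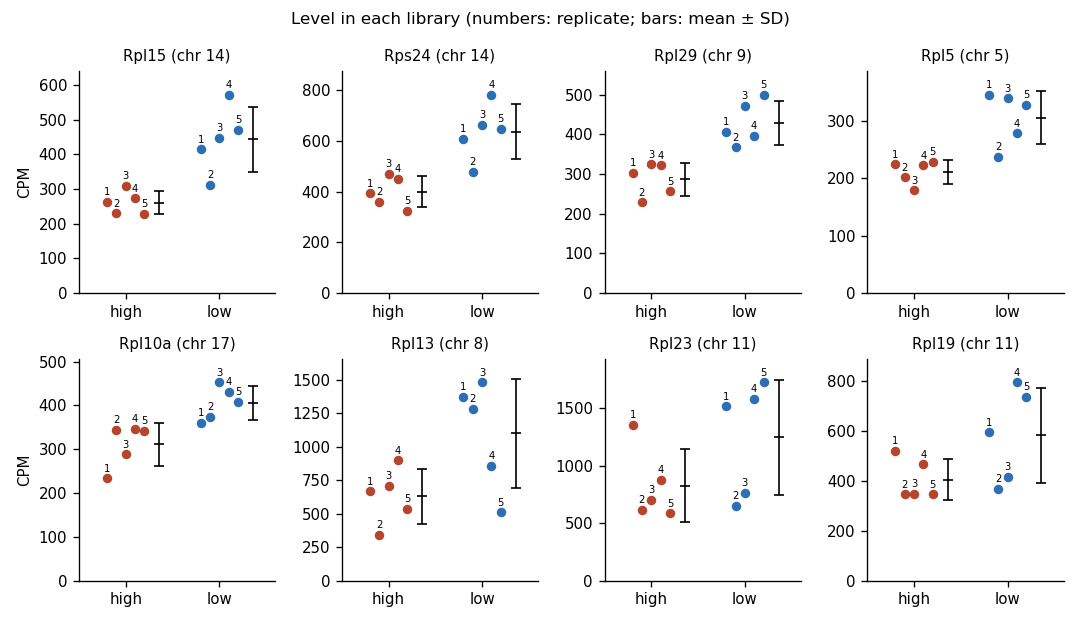
CPM of 8 ribosomal protein genes in each library, high heteroplasmy left and low heteroplasmy right in each panel, with replicate numbers at the points and bars for mean ± SD (n = 5). The groups do not overlap for Rpl15, Rps24, Rpl29, Rpl5 and Rpl10a, and overlap for Rpl13, Rpl23 and Rpl19.

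Grouped by their place in the ribosome, members differed little in their typical shift. The groups of this paragraph were drawn up after values were seen and serve as description only. The stalk that recruits the translation factors with GTPase activity is built of Rplp0, Rplp1 and Rplp2, with log2 fold changes of -0.28, -0.36 and -0.39 and 0 of 3 called by edgeR, DESeq2 or limma-voom, nor any at an unadjusted p under 0.05. Of 8 proteins around the exit of the tunnel that the new chain leaves through, 7 were below 0, with a median of -0.24, and the same tests called 0 (2 at an unadjusted edgeR p under 0.05, Rpl19 and Rpl35). Of 7 small subunit proteins along the mRNA path and at the decoding site, 6 were below 0, with a median of -0.37 and 3 at an unadjusted edgeR p under 0.05. Among these Rpsa, which was first known as a laminin receptor, had a log2 fold change of -0.60 (SE 0.17), Rps3, at the mRNA entry, one of -0.51 (SE 0.19), and Rps15 one of 0.13 (SE 0.17). The last group holds 11 genes picked from those whose human counterparts are mutated in Diamond-Blackfan anaemia. It is not a complete list, and its shares depend on which genes were picked. Of these genes 10 were below 0, with a median of -0.37 and 5 at an unadjusted edgeR p under 0.05, where 21.6% of all genes had one. Of these 11, edgeR called Rps24 and Rpl15, with 4.86% of all genes called, and both lie on chromosome 14 and lose the call with the chromosome offset described below. Rps19, the first of them to be linked to the disease, had a log2 fold change of -0.37 (SE 0.21) and Rpl35a the highest of all members, 0.14 (SE 0.18).

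Across the 10 libraries the members moved together to different degrees. The correlation of a member's log2 CPM with the mean of the other members had a median of 0.755 over the 82, from 0.143 for Rps6 to 0.966 for Rpl35, and was above 0.5 for 67. The 10 points share library and scaling, and members of the same chromosome also share its deviation (given below), so these values are a description. The median deviation of the members from their own medians was -0.02, -0.33, -0.08, 0.08 and -0.47 (log2) in high 1 to high 5, against 0.11, -0.21, 0.28, 0.15 and 0.26 in low 1 to low 5. High 5, high 2 and low 2 were the lowest of all and low 3 and low 5 the highest, and the groups overlapped. The mean over libraries was -0.164 ± 0.23 in high heteroplasmy and 0.118 ± 0.20 in low heteroplasmy (SD, n = 5 each), a step of -0.28. The lowest of the 10 libraries was high 5 for 43 members, or 52.4%, against 14.7% of all genes tested, and the highest was low 3 for 30 members, or 36.6%, against 8.02% of all genes.

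Rps6, the target of S6 kinase in the mTORC1 pathway and the member least like the others, measured 134, 225, 177, 238 and 250 CPM in high 1 to high 5, against 217, 217, 204, 313 and 284 CPM in low 1 to low 5. Its lowest library was high 1 and not high 5. Rpl35, the member most like the others, measured 252, 149, 210, 323 and 148 CPM in high 1 to high 5, against 316, 238, 374, 356 and 352 CPM in low 1 to low 5, and the log2 fold change was -0.59 (SE 0.23, edgeR adjusted p = 0.156). Its groups overlapped through high 4 and low 2, and high 2 and high 5 stood lowest. Rpl35 shares 821 of its 1241 exon bases with Wdr38, listed at 0.181 CPM, and 62 with Arpc5l, listed at 64.8 CPM, both on the opposite strand.

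The members are spread over 19 chromosomes, and in some libraries and on some chromosomes they followed the other genes of their chromosome. A chromosome's deviation is the median, over its genes, of log2 CPM minus the gene's own median over the 10 libraries. Elsewhere the members departed from it. In high 5 they stood at -0.03, -0.39 and -0.48 on chromosomes 10, 18 and X. The other genes of these chromosomes stood at 0.42, 0.26 and 0.01 there. Chromosome 7 holds 14 tested members, among them Rps19, Rps3, Rps16 and Rpl13a, and all 14 were lowest in high 5. Their median deviation there was -0.94, against -0.43 for the 640 other genes of chromosome 7 and -0.43 for the members on other chromosomes in the same library. Of the 68 members elsewhere, 29 were lowest in high 5. Rps19, for example, measured 282, 289, 355, 430 and 189 CPM in high 1 to high 5, against 392, 323, 491, 370 and 425 CPM in low 1 to low 5. Rps3 measured 736, 962, 900, 1129 and 612 CPM in high 1 to high 5, against 1126, 963, 1453, 1321 and 1319 CPM in low 1 to low 5. In both genes high 4 lay among the low libraries and low 2 among the high libraries. The 4 members on chromosome X (Rpl10, Rpl36a, Rpl39 and Rps4x) stood at 0.49 in high 4 and 0.82 in low 3, against 0.44 and 0.46 for the 280 other genes of that chromosome in those libraries. Rpl10, near the P site, measured 420, 447, 514, 821 and 391 CPM in high 1 to high 5, against 548, 528, 994, 599 and 631 CPM in low 1 to low 5, and Rps4x measured 472, 796, 708, 1193 and 810 CPM against 734, 694, 1447, 996 and 992 CPM in low heteroplasmy. High 4 and low 3 were the highest of their groups in both genes. Rpl39, which lines the exit tunnel, measured 209, 110, 148, 203 and 88.3 CPM in high 1 to high 5, against 173, 119, 274, 148 and 170 CPM in low 1 to low 5. Its highest library was low 3, while high 1 and high 4 lay close together at the top of the high group.

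On chromosomes 8 and 14, which hold Rpl13 and the called Rpl15 and Rps24, the other genes were lower in the high libraries too. The 546 other genes of chromosome 8 had a median deviation of -0.34, -0.18, -0.37, -0.15 and -0.50 in high 1 to high 5, against 0.28, 0.42, 0.26, 0.19 and 0.17 in low 1 to low 5. The 324 other genes of chromosome 14 stood at -0.38, -0.21, -0.02, -0.26 and -0.14 in high 1 to high 5, against 0.05, 0.06, 0.11, 0.45 and 0.29 in low 1 to low 5. On both chromosomes the 2 groups of libraries did not overlap. With an offset for each chromosome in each library, edgeR called 0 members (1.27% of all genes), and the log2 fold changes were -0.35 for Rpl15 (adjusted p = 0.205), -0.26 for Rps24 (adjusted p = 0.362) and -0.46 for Rpl29 on chromosome 9 (adjusted p = 0.106). In that fit 81 of 82 members were below 0, with a median of -0.30. The 78 members outside chromosomes 8 and 14 had 74 below 0 and a median of -0.30 without an offset.

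**Figure D4:**
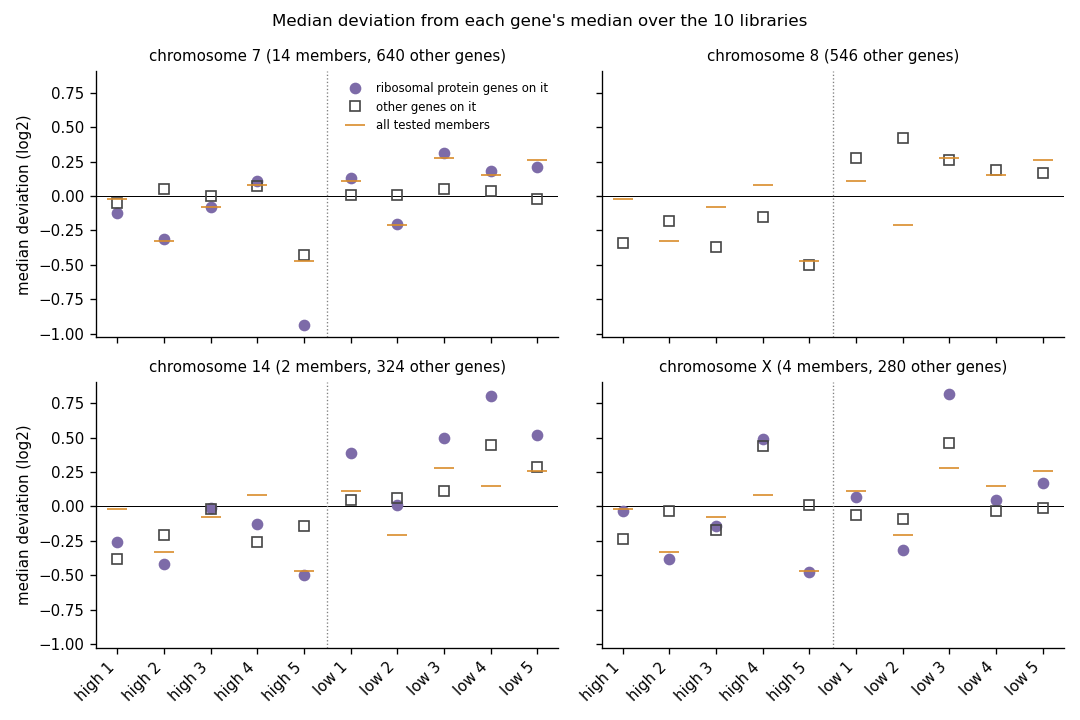
Median deviation (log2) in each library of the members on chromosomes 7, 14 and X (filled circles), of the other genes of chromosomes 7, 8, 14 and X (open squares) and of all tested members (bars), high heteroplasmy left and low heteroplasmy right of the dotted lines. On chromosome 7 the 14 members stand at -0.94 in high 5 and the other genes at -0.43, and on chromosome 8 the other genes are below 0 in all high libraries and above 0 in all low libraries.

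Rpl13 (ENSMUSG00000000740, chr8:123102350-123105244, plus strand), on chromosome 8, had the largest SD over the libraries. Rpl13 measured 665, 342, 707, 896 and 537 CPM in high 1 to high 5, against 1371, 1280, 1479, 858 and 509 CPM in low 1 to low 5. Low 1, low 2 and low 3 stood high, while low 4 and low 5 lay inside the high range. Its log2 fold change was -0.80 (SE 0.31, edgeR adjusted p = 0.16). Its start window, with a run of 10 pyrimidines that ends before the annotated start, reads as follows.

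Rpl13 (chr8:123102330-123102389, plus strand): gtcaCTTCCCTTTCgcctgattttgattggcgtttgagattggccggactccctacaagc

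Rpl23, a large subunit protein that can bind Mdm2 when free of the ribosome, had the next largest SD. Rpl23 (ENSMUSG00000071415, chr11:97777527-97782437, minus strand) measured 1358, 615, 704, 879 and 585 CPM in high 1 to high 5, against 1518, 651, 765, 1581 and 1727 CPM in low 1 to low 5. The values fell into a low and a high range, with high 1, low 1, low 4 and low 5 at the top, and the log2 fold change was -0.59 (SE 0.32, edgeR adjusted p = 0.318). Rpl19, whose start lies 0.249 Mb away, measured 519, 345, 347, 466 and 346 CPM in high 1 to high 5, against 594, 367, 415, 795 and 738 CPM in low 1 to low 5, with the same 4 libraries at the top. The 38 other genes within 1 Mb of Rpl23, chosen after the values were seen, had median deviations of 0.29, 0.03, -0.09, -0.20 and -0.06 in high 1 to high 5, against 0.19, -0.15, -0.60, 0.56 and 0.36 in low 1 to low 5. These neighbours were also highest in low 4, low 5, high 1 and low 1.

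The single member of chromosome 6, Rpl32, measured 1252, 761, 831, 805 and 762 CPM in high 1 to high 5, against 865, 656, 963, 917 and 899 CPM in low 1 to low 5. High 1 stood above the rest of its group. The 442 other genes of that chromosome had a median deviation of 0.44 in high 1, where Rpl32 stood at 0.56. In high 2 and high 5 these genes stood at 0.27 and 0.18, while Rpl32 stood at -0.16 and -0.15. The log2 fold change of Rpl32 was 0.04 (SE 0.18, edgeR adjusted p = 0.938).

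**Figure D5:**
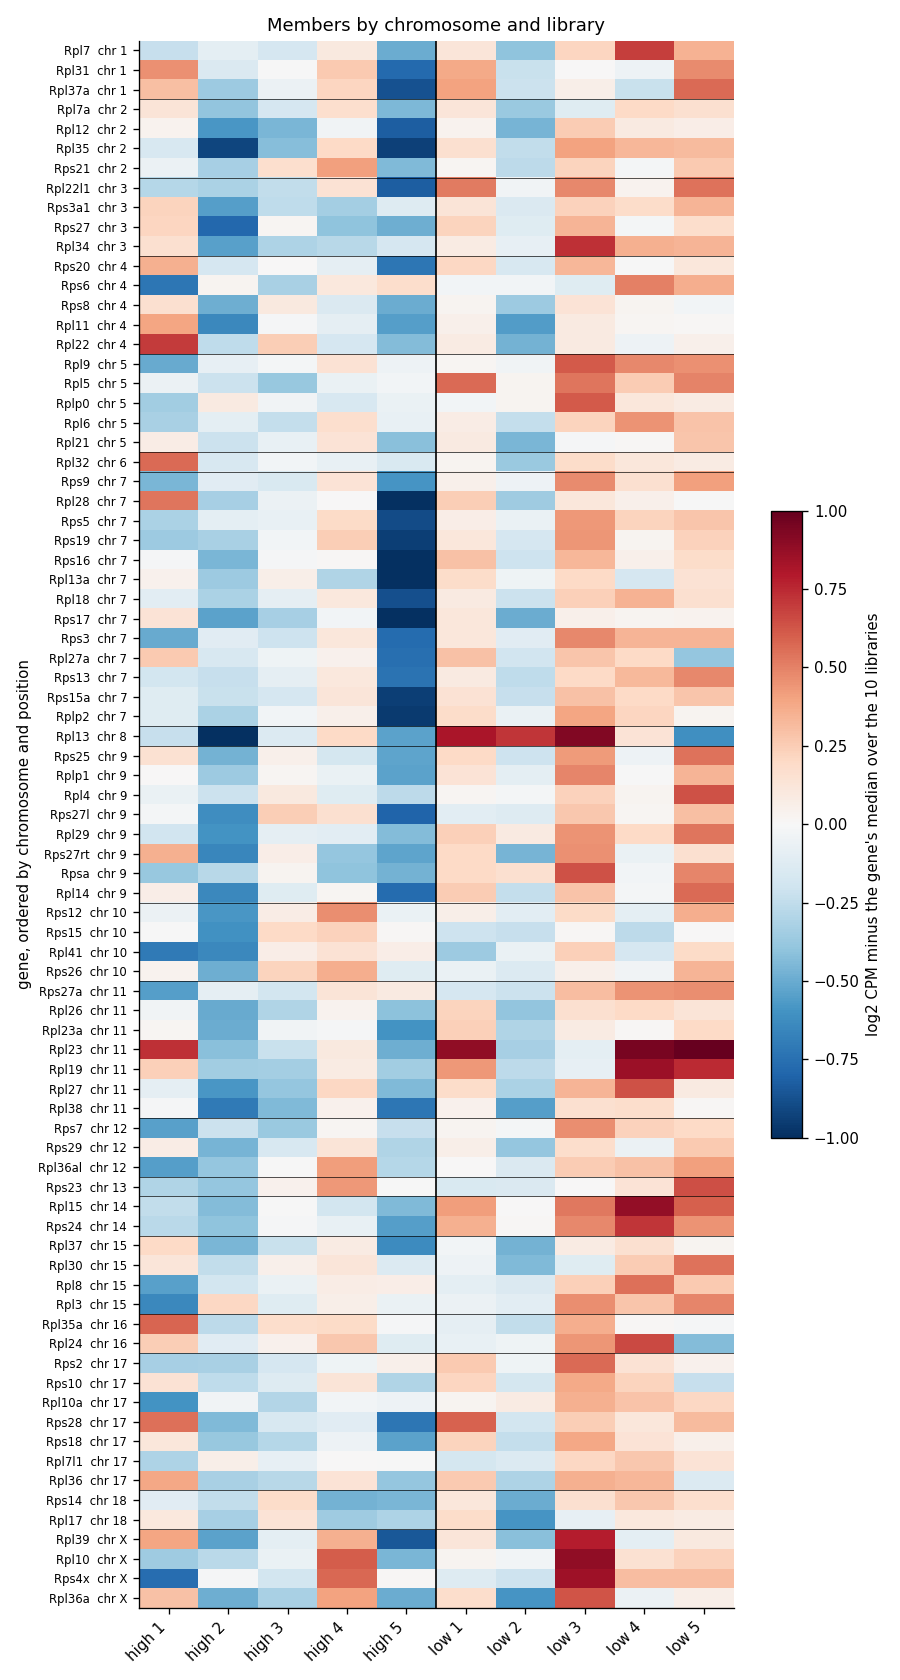
Log2 CPM of 80 of the 82 tested members minus the gene's median over the 10 libraries, by chromosome and position (rows) and library (columns, high heteroplasmy left of the line). The chromosome 7 genes are lowest in high 5, and Rpl23 with Rpl19 on chromosome 11 is high in high 1, low 1, low 4 and low 5.

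Levels of different members can be set side by side only per length of transcript, here that of the longest principal coding one. It is long in some members, such as Rps15a (5179 bases) and Rps20 (3706 bases). Which transcripts were expressed was not tested, and a gene read mainly from a shorter one is placed too low. On that scale the median over tested members was 523 CPM per kb, with quartiles of 311 and 976 CPM per kb. The highest were Rps15, at 3146 CPM per kb in high heteroplasmy and 2884 CPM per kb in low heteroplasmy, Rplp1, at 2455 and 3154 CPM per kb, and Rpl8, at 1830 and 2248 CPM per kb, each with the high mean first. By library, Rps15 measured 1572, 1037, 1816, 1851 and 1589 CPM in high 1 to high 5, against 1371, 1346, 1589, 1317 and 1587 CPM in low 1 to low 5, and its high 2 value was the lowest of the 10. Rplp1 measured 1383, 1071, 1397, 1318 and 955 CPM in high 1 to high 5, against 1516, 1291, 1932, 1378 and 1751 CPM in low 1 to low 5, with a log2 fold change of -0.36 (SE 0.17). Rpl8, close to the peptidyl transferase centre, measured 1384, 1779, 1933, 2128 and 2108 CPM in high 1 to high 5, against 1882, 1823, 2387, 2957 and 2414 CPM in low 1 to low 5, with a log2 fold change of -0.30 (SE 0.18). All 3 overlapped between the groups.

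At the other end stood Rpl24, at 1.32 CPM per kb in high heteroplasmy and 1.41 CPM per kb in low heteroplasmy. Its library values ran from 0.765 to 1.03 CPM in the high libraries and from 0.599 to 1.38 CPM in the low libraries, in a gene whose protein joins the subunits and is needed by growing cells. Rpl24 shares 484 of its 1030 exon bases with Gm28037 on the same strand, a gene absent from the count table. Whether reads of Rpl24 were lost to this overlap or assigned to copies elsewhere in the genome was not tested, and its level is uncertain. Rps27rt, an intronless copy of Rps27, stood at 17.4 CPM per kb in high heteroplasmy and 21 CPM per kb in low heteroplasmy, and reads of Rps27 could be split with it. Rpl7l1, a relative of Rpl7 known in human cells from precursors of the large subunit, stood at 55.6 and 60.8 CPM per kb in the same order.

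Some members come as pairs of a canonical gene and a copy, and the copy's share of the pair's counts is free of library scaling. The widest step was that of Rpl22l1 and Rpl22, whose product represses Rpl22l1 in mice. Rpl22l1 held 17.4, 28.5, 22.8, 34.0 and 24.1% of the pair in high 1 to high 5, against 36, 36, 35.3, 30.7 and 36.9% in low 1 to low 5. All high libraries but high 4 lay below all low libraries, with means of 25.4 ± 6.2% in high heteroplasmy and 35.0 ± 2.5% in low heteroplasmy (SD, n = 5 each). Rpl22l1 itself measured 93.5, 91.7, 95.8, 126 and 64.4 CPM in high 1 to high 5, against 163, 111, 159, 117 and 166 CPM in low 1 to low 5, and the log2 fold change was -0.60 (SE 0.19, edgeR adjusted p = 0.0927). Rpl22 measured 445, 230, 324, 244 and 203 CPM in high 1 to high 5, against 290, 197, 291, 264 and 284 CPM in low 1 to low 5. High 1 was the highest of all for Rpl22, and its log2 fold change was 0.12 (SE 0.22, edgeR adjusted p = 0.802). Rpl22l1 lies on chromosome 3 and Rpl22 on chromosome 4, so the share is not free of chromosome deviations. The other genes of chromosome 3 stood at 0.45, -0.32 and -0.36 in high 1, high 2 and high 4. With the chromosome offset, the log2 fold changes were -0.46 for Rpl22l1 (edgeR adjusted p = 0.374) and 0.03 for Rpl22 (edgeR adjusted p = 0.961).

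The other pairs differed by less than their spread. Rpl36al held 24.7, 38.6, 42.3, 37.4 and 40.4% of its pair with Rpl36a in high 1 to high 5, against 34.4, 44.5, 31.2, 42.8 and 42.8% in low 1 to low 5. Rpl7l1 held 14.1, 16.3, 15.7, 14 and 19.7% of its pair with Rpl7 in high 1 to high 5, against 12.4, 17.3, 14.7, 11.5 and 13.1% in low 1 to low 5. Rps27l, a p53 target, held 26, 31.5, 32.6, 37.8 and 24.9% of its pair with Rps27 in high 1 to high 5, against 24.7, 29.1, 28.2, 29.7 and 31.0% in low 1 to low 5. The groups overlapped in each of these 3 pairs. Of the canonical genes, Rpl7 measured 741, 809, 770, 930 and 615 CPM in high 1 to high 5, against 944, 657, 1009, 1404 and 1103 CPM in low 1 to low 5, with low 4 the highest. Rps27 measured 484, 243, 424, 316 and 298 CPM in high 1 to high 5, against 488, 384, 528, 412 and 472 CPM in low 1 to low 5, with high 2 the lowest. Rpl36a ran from 145 to 270 CPM in the high libraries and from 136 to 317 CPM in the low libraries. Rpl3, at the peptidyl transferase centre, ran from 300.2 to 543 CPM in the high libraries and from 436 to 659 CPM in the low libraries. All 4 overlapped between the groups. The copies of Rpl3, Rpl10 and Rpl39 are those given above with 0 to 9 counts in all, and Rps4l, a pseudogene in the annotation used and thus no member, had 0 counts.

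Outside the ribosome itself, 8 lists of genes that serve it were read from the same fit. Of 228 distinct genes tested, edgeR called 6 lower in high heteroplasmy and 0 higher, with 4.86% of all genes called, and all 6 lie on chromosome 8 or 14. The count was 1 with the chromosome offset and 0 without low 2 and low 3, and 8 of the 10 fits that left out 1 library called 1 or 2 list genes. Assembly and export of the large subunit had 1 of 57 called, Nip7 on chromosome 8, at 42.4 to 59.8 CPM in the high libraries and 65.6 to 109.2 CPM in the low libraries, and its log2 fold change was -0.74 with an SE of 0.17 (adjusted p = 0.0359). The median of that list was 0.00, with 28 below 0. Small subunit assembly had 3 of 55 called and a median of 0.02, with 27 below 0. They were Ddx49, a helicase, at 67.1 to 116 CPM against 141 to 163 CPM in low heteroplasmy (log2 fold change -0.77), Ngdn, at 52.6 to 79.2 CPM against 80.2 to 146 CPM (-0.82), and Utp4, at 54.7 to 89.8 CPM against 98.3 to 189 CPM (-0.85), with the high range first and adjusted p of 0.0199, 0.0326 and 0.0455.

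Other mRNAs of the 5′ TOP class, which share the start motif with the members, had 18 of 24 below 0 and a median of -0.08, beside 0.02 over all genes tested. Tpt1, the translationally controlled tumour protein on chromosome 14, was called, at 588 to 1054 CPM in the high libraries and 1242 to 1801 CPM in the low libraries (log2 fold change -0.82, SE 0.20, edgeR adjusted p = 0.0378). Rack1, the scaffold on the small subunit, had a log2 fold change of -0.43 (adjusted p = 0.19). Of the regulators of ribosomal protein synthesis, 8 of 26 were below 0 and the median was 0.11. The one called was Eif4ebp1 on chromosome 8, the translation repressor that mTORC1 switches off, at 88.0 to 202 CPM in the high libraries and 189 to 387 CPM in the low libraries, and its log2 fold change was -1.18 with an SE of 0.27 (edgeR adjusted p = 0.0338). Its groups overlapped through high 4 and low 5.

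The remaining lists had 0 genes called by edgeR, and the counts below stand beside 21.6% of all genes at an unadjusted edgeR p under 0.05, 7.05% called by DESeq2 and 5.1% called by limma-voom. The DESeq2 share is again a low background, because its base includes genes left without an adjusted p. The dedicated chaperones of ribosomal proteins had 9 of 16 below 0, a median of -0.01, and 0 at an unadjusted p under 0.05 or called by DESeq2 or limma-voom. RNA polymerase I and its cofactors had 12 of 23 below 0 and a median of -0.05, with 5 at an unadjusted p under 0.05 and 1 called by each of DESeq2 and limma-voom, and the smallest p was that of Taf1d (log2 fold change -0.66, adjusted p = 0.0571). Ribosome stress and surveillance had 13 of 26 below 0 and a median of -0.02, with 4 at an unadjusted p under 0.05, 3 called by DESeq2 and 0 by limma-voom. Hibernation and accessory factors had 7 of 11 below 0 and a median of -0.07, with 3 at an unadjusted p under 0.05, 3 called by DESeq2 and 1 by limma-voom, among them Abce1, the ribosome recycling factor on chromosome 8 (log2 fold change -0.74, edgeR adjusted p = 0.059).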

How the data were processed

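Polyadenylated RNA of 10 populations was sequenced as 50 bp pairs from a stranded kit, per the labels' protocols. Per the submitters' processing notes, STAR 2.7.8a, R 4.2.1, DESeq2 1.36.0 and the build GRCm38 were used, without stated roles. The sources used here name no counting tool, annotation release or strand setting, which bears on overlapping genes and on members with processed copies. The authors deposited whole read counts per Ensembl gene, with the 2 runs of each library combined, and a normalized signal, which was checked to be those counts divided by 1 number per library in all 10 libraries and was not tested. Genes were named with GENCODE M21; 195 stayed without a name.

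Counts were tested with edgeR 4.0.16 in R 4.3.3 on all 10 libraries: default expression filter by group, TMM scaling, robust quasi-likelihood F-test on the group alone, Benjamini-Hochberg adjustment over 12964 genes, threshold 0.05, two-sided. Log2 fold changes give high over low, with an SE equal to their size divided by the root of F. CPM carry the TMM factor, and summed shares use raw totals. Transcript lengths are those of the longest principal coding transcript, and a chromosome's deviation uses tested genes with a mean log2 CPM above 3. Named in full were called members, members whose groups did not overlap, copy pairs, the 3 highest and 3 lowest per length, the 4 with the largest SD, members of chromosomes 6, 8 and 14 and, per list, called genes or the smallest p. Rpl11, Rpl19, Rps6, the role groups, the chromosome 7 and X members and the neighbours of Rpl23 were chosen after their values were seen. Some genes that this rule selects enter the totals but are not reported here. The members and lists were chosen with earlier results of these data known. Alternatives were other scalings and filters, blocks, a chromosome offset, -ps copies added to their parents, libraries left out, DESeq2 1.42.0, limma-voom (limma 3.58.1) and a threshold of 0.1. The code was tested on simulated data. Figures were drawn with matplotlib 3.10.9. Copies named -ps, counted apart from their parents, held 0.018 to 0.0321% of counts per library. Their counts equalled 32.4% of those of the parent for Rpl38 and 5.33 to 7.12% for Rpl36a, Rpl31 and Rpl14.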

Additional observations from a re-analysis of the deposited data

Results flagged for a closer look

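In 3 of 54 groups of 5 libraries that were looked at, 1 library stood further from its nearest neighbour than Dixon's 95% critical value of 0.71 of the group's range allows, and chance does so in about 1 in 20 groups. Rpl10, on chromosome X, was 821.0 CPM in high 4, above the other high libraries at 391 to 514 CPM, and 994.0 CPM in low 3, above the other low libraries at 529 to 631 CPM. Rpl32, on chromosome 6, was 1252.2 CPM in high 1, above the other high libraries at 761 to 831 CPM.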

How the results depend on the processing

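The count of called genes (630) was 164 with the chromosome offset, 56 without low 2 and low 3, 1640 with DESeq2, 1276 at a threshold of 0.1 and 232 to 821 with 1 library left out. The count of called members (4) was 2 with no filter, 0 with the offset, 0 without low 2 and low 3, 7 with DESeq2, 7 at 0.1 and 1 to 5 with 1 library left out. It was 5 without high 4, 3 without low 2, 2 without high 1 and 1 without any other library. The list count (6) was 1, 0, 14, 14 and 1 to 9 under the offset, without low 2 and low 3, with DESeq2, at 0.1 and with 1 library left out. The difference in summed share (-0.86) kept its direction and stayed within 1 SD where a setting could change it. As a share of raw totals, it cannot change with scaling, filter, block, offset, test or threshold. Those settings are therefore no check of it, and only libraries left out and added -ps copies can move it. Replicate numbers were not used as pairs in the main fit, and the check of them was mixed. Same-number correlations of deviations were 0.50, 0.03, 0.01, 0.17 and 0.25. High 1 with low 1 and high 5 with low 5 had the highest correlations of all. High 2, high 3 and high 4 each correlated better with a low library of another number. The replicate block called 577 genes and 3 members, with Rpl29 at an adjusted p of 0.0569, and 9 list genes. With the number in each sample's code as a block (number 9 holds only high 3 and high 4), 479 genes and 3 members were called, Rpl29 had an adjusted p of 0.0517, the members' median was -0.45 and Rps27l stood at -0.58. Of the comparisons of named members with their alternatives, 571 kept direction and side of the threshold, 37 lost the call, 5 gained one and 10, all of uncalled genes, changed sign: Rpl22 (-0.02 with the code number block, -0.08 to 0.22 with 1 library left out, negative without high 1), Rpl36a (-0.31 to 0.01 with 1 left out, positive without low 3), Rps15 (-0.07 with that block, -0.17 with the offset), Rpl24 (-0.23 to 0.07, positive without low 4) and Rpl32 (-0.27 with the offset, -0.00 without low 2 and low 3, -0.12 to 0.08 with 1 left out, negative without high 1 at -0.12 and without low 2 at -0.03). The cause was not tested. Depth limits Rpl24 and the copies with under 10 counts.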
